A study of Saccharomyces cerevisiae with 4 samples.

Results

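The lysine synthesis genes of budding yeast, Saccharomyces cerevisiae, were followed through 1 h of rapamycin treatment in wild-type and in ptc1 cells. The label ptc1 refers to the gene of the protein phosphatase Ptc1, and it does not itself state that the protein was absent. The set was defined by open reading frame and holds 9 genes of 6176, namely LYS20 (YDL182W), LYS21 (YDL131W), LYS4 (YDR234W), LYS12 (YIL094C), LYS2 (YBR115C), LYS5 (YGL154C), LYS9 (YNR050C), LYS1 (YIR034C) and LYS14 (YDR034C). Each had 1 row in the deposited table and a value on every array. Both strains grew at 28 °C in YPD, a rich medium, and at an absorbance (A660) of 0.5 received rapamycin at 200 ng/ml or the ethanol and Tween-20 vehicle. Every 2-colour array set treated against mock-treated cells of a strain, with 2 arrays per strain and 4 in all. The sources used here do not state the strain background, the ploidy or how the ptc1 mutation was made.

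Yeast makes lysine through the aminoadipate pathway, which starts from 2-oxoglutarate and acetyl-CoA. The upper part builds aminoadipate, largely in mitochondria, and the lower part turns it into lysine in the cytosol by way of saccharopine. Lysine inhibits homocitrate synthase, the enzyme of the first step, and the pathway intermediate aminoadipate semialdehyde acts with the activator Lys14 to switch the genes on. The general activator Gcn4 also acts on amino acid synthesis genes. TORC1, the kinase complex that rapamycin inhibits, couples growth to the supply of nitrogen and amino acids.

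The series' design states that RNA samples were hybridised with swapped dyes, and both arrays of a strain therefore count as 1 RNA pair. The ± of a strain mean is the SD of its 2 arrays and holds technical spread only, the ± of a strain difference combines both SDs as the root of their summed squares, and no p-value could be calculated. Values are given as log2 of the rapamycin over the mock signal. Neither the base of the logarithm nor the direction comes with the deposited values. The direction is likely because GAP1, a permease gene that rapamycin is known to induce, had values from 4.28 to 5.67 on the 4 arrays. The words rose and fell are used for a strain mean of 1 or more in size, equal to 2-fold, when both of its arrays lay on the same side of 0. In such cultures a change of RNA in every cell and a change in the share of cells expressing a gene cannot be told apart. PTC1 itself had values of 0.003 and −0.525 on the wild-type arrays and none on the ptc1 arrays. The dye named in the titles of the ptc1 arrays is the opposite of that in their dye fields, so which array carried which dye is not settled there. Across the 4650 genes measured on all arrays, Pearson's r between the arrays was 0.958 for the wild type and 0.869 for ptc1, a description since genes are not independent replicates. The 4 pairings of arrays across strains gave r from 0.898 to 0.939, so each ptc1 array was more like either wild-type array than like the other ptc1 array.

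In the wild type 3 of the 4 genes of the lower pathway and the activator gene rose, while no gene of the upper pathway passed the 2-fold rule. LYS1, LYS2, LYS5 and LYS14 were the 4 of 9 genes that rose, where 13.8% of all measured genes rose. No member fell, where 15.0% of all genes did, and LYS4 came nearest with a mean of −0.93. The median of the 9 wild-type means was 0.87, beside 0.07 over all genes measured on both arrays. In ptc1 all 9 means were lower than in the wild type. A lower ptc1 mean was found in 68.9% of all genes with a wild-type mean above 0. The median of the 9 ptc1 means was 0.13, beside 0.08 over all genes. That ptc1 median rests on both arrays, being 0.063 without ptc1 array 1 and 0.406 without ptc1 array 2. There LYS1 alone of the 9 rose, where 10.6% of all genes did, and LYS4 alone fell, where 12.4% did.

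**Figure D1:**
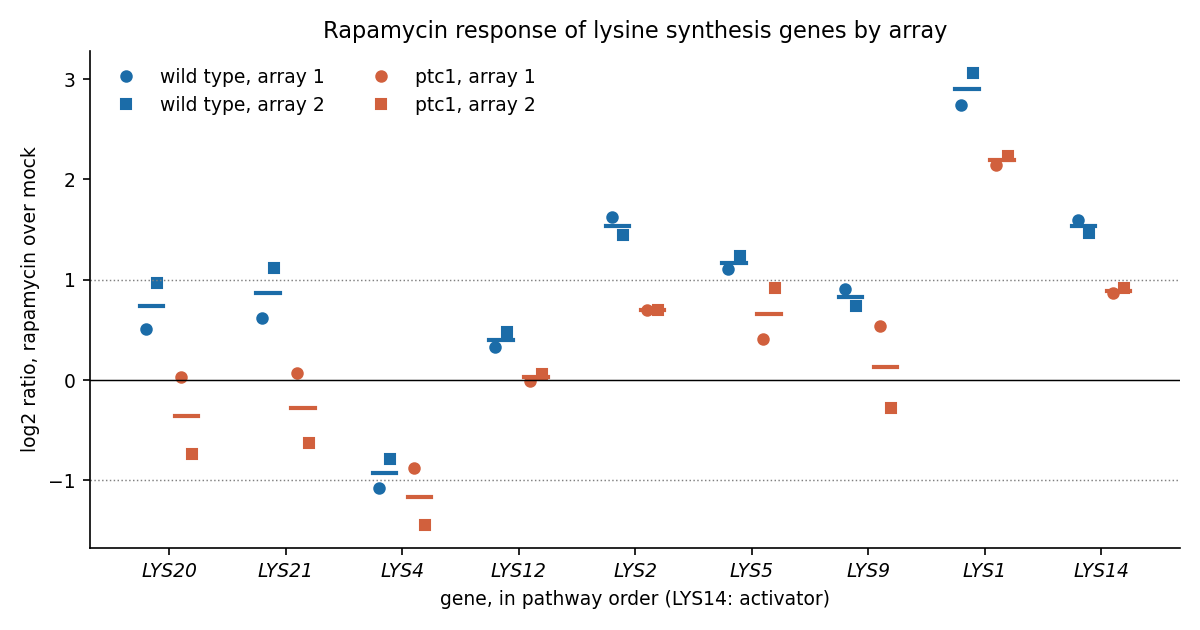
Log2 ratio of rapamycin over mock (vertical axis) for the 9 genes in pathway order, on wild-type arrays (blue) and ptc1 arrays (orange). Circles are array 1, squares array 2, short lines the strain means and dotted lines the 2-fold limits. LYS1 lies highest on every array and LYS4 lowest, and the ptc1 means lie below the wild-type means for all 9 genes.

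Homocitrate synthase, which commits carbon to lysine, is encoded by the isozyme genes LYS20 and LYS21. LYS20 had log2 ratios of 0.51 and 0.97 on wild-type arrays 1 and 2 and of 0.029 and −0.735 on ptc1 arrays 1 and 2. LYS21 had values of 0.62 and 1.11 in wild-type cells against 0.069 and −0.628 in ptc1 cells. Both genes were above 0 on each wild-type array and had mixed signs in ptc1, and for neither did the strains overlap. The wild-type means were 0.74 ± 0.32 for LYS20 and 0.87 ± 0.35 for LYS21, and neither had risen by the 2-fold rule. On every array LYS21 lay above LYS20 by 0.04 to 0.146, so the isozymes moved almost in parallel. Whether the array separates the signals of these genes was not tested.

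Homoaconitase, encoded by LYS4, acts next. LYS4 had −1.075 and −0.78 on the wild-type arrays and −0.88 and −1.45 on the ptc1 arrays. It was the member below 0 on all 4 arrays, a sign pattern held by 31.6% of all genes, and its strains overlapped. The wild-type mean was −0.93 ± 0.21, short of 2-fold, and the ptc1 mean was −1.16 ± 0.40, a 2.24-fold fall that was lost without ptc1 array 2, where the remaining value was −0.88. The other enzyme genes of the set stood above mock on both wild-type arrays.

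LYS12 encodes homoisocitrate dehydrogenase, the last enzyme of the upper part before transamination. It had wild-type values of 0.33 and 0.48 and ptc1 values of −0.005 and 0.063, the smallest responses of the set. Its ptc1 mean of 0.029 ± 0.048 turned to −0.019 when arrays were centred on their medians, so it has no settled sign. The 2-oxoadipate that Lys12 delivers is transaminated by enzymes including Aro8. ARO8 (YGL202W) had values of 1.13 and 1.39 in wild-type cells against 0.75 and 0.40 in ptc1 cells. It rose in the wild type (mean 1.26 ± 0.19) and not in ptc1 (0.57 ± 0.25), though its strain difference of −0.69 ± 0.31 did not reach 2-fold.

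The lower part opens with aminoadipate reductase, encoded by LYS2. LYS2 had 1.62 and 1.44 on the wild-type arrays and 0.700 and 0.703 on the ptc1 arrays. All values were above 0 and the strains did not overlap, with a rise of 1.53 ± 0.13 (2.89-fold) in the wild type and a mean of 0.70 in ptc1 whose SD was 0.0021. Lys5 attaches the phosphopantetheine group that makes Lys2 active. LYS5 had 1.10 and 1.24 on wild-type arrays, then 0.41 and 0.92 on ptc1 arrays. It rose in the wild type (1.17 ± 0.10, 2.25-fold), and its ptc1 arrays differed from each other by 0.51 around a mean of 0.66 ± 0.36.

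Saccharopine reductase is encoded by LYS9, and saccharopine dehydrogenase, which releases lysine, by LYS1. LYS9 had wild-type values of 0.91 and 0.74 and ptc1 values of 0.535 and −0.28. Its wild-type mean of 0.83 ± 0.12 lay just short of 2-fold, and its ptc1 mean of 0.13 ± 0.58 was within the array spread. LYS1 had values of 2.74 and 3.06 in wild-type cells against 2.14 and 2.23 in ptc1 cells. It was the strongest responder of the pathway in both strains, rising by 2.90 ± 0.22 (7.46-fold) in the wild type and by 2.19 ± 0.06 (4.56-fold) in ptc1. It ranked 60 from the top of 4796 genes in the wild type and 88 from the top of 5221 in ptc1.

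LYS14, the gene of the pathway activator, had 1.595 and 1.47 on wild-type arrays, then 0.87 and 0.91 on ptc1 arrays. It rose by 1.53 ± 0.09 (2.89-fold) in the wild type and had a ptc1 mean of 0.89 ± 0.03, just inside 2-fold, with no overlap of the strains. The value of LYS14 was close to that of LYS2 in the wild type, where the means differed by 0.001.

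The order of the wild-type means was LYS1, LYS2, LYS14, LYS5, LYS21, LYS9, LYS20, LYS12 and LYS4. Neighbours overlapped in their array values between LYS2 and LYS14 and along the run from LYS5 to LYS20. The remaining neighbours, at the gaps after LYS1, LYS14, LYS20 and LYS12, did not overlap, the gap from LYS1 to LYS2 being 1.37. In ptc1 the order was LYS1, LYS14, LYS2, LYS5, LYS9, LYS12, LYS21, LYS20 and LYS4, with overlap between all neighbours from LYS2 to LYS20. LYS1 and LYS4 thus kept the ends of the order in both strains. LYS1 exceeded LYS4 by 3.82 and 3.84 on the wild-type arrays and by 3.02 and 3.68 on the ptc1 arrays, a difference of responses that centring of an array cannot alter.

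By part of the pathway, the 4 upper genes (LYS20, LYS21, LYS4, LYS12) had medians of 0.42 and 0.72 on the wild-type arrays and of 0.012 and −0.68 on the ptc1 arrays. The 4 lower genes (LYS2, LYS5, LYS9, LYS1) had medians of 1.36 and 1.34 on the wild-type arrays and of 0.62 and 0.81 on the ptc1 arrays. The lower genes had the higher median on every array. In the wild type 3 of them rose against 0 of the upper ones, where 13.8% of all genes rose. At that share a count of 0 is usual for 4 genes. The parts were not cleanly split, as the wild-type mean of LYS21 (0.87) lay above that of LYS9 (0.83). At a limit of 1.5-fold LYS20 and LYS21 also rose. The median strain differences were −0.73 for the upper and −0.70 for the lower genes, although single upper genes spread from −1.15 to −0.23 and lower ones from −0.83 to −0.51.

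The next comparison asked whether the response of these genes differed between ptc1 and wild-type cells. To be called, a strain difference (ptc1 minus wild type) had to reach 1 in size between the means and to keep its sign in all 4 pairings of arrays across strains. LYS21 and LYS20 were called lower, 2 of 9 genes, where 0.925% of all genes were called lower. These isozyme genes lay 0.04 to 0.146 apart on every array, and separation of their signals was not tested. The 2 calls may therefore not be separate observations. No member was called higher, where 0.989% of all genes were. LYS21 differed by −1.15 ± 0.60, with pairs from −1.74 to −0.55, and LYS20 by −1.09 ± 0.63, with pairs from −1.70 to −0.48. Both calls needed array 2 of each strain. Without wild-type array 2 the differences were −0.90 for LYS21 and −0.865 for LYS20, and without ptc1 array 2 they were −0.80 and −0.71, so that no member was then called.

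**Figure D2:**
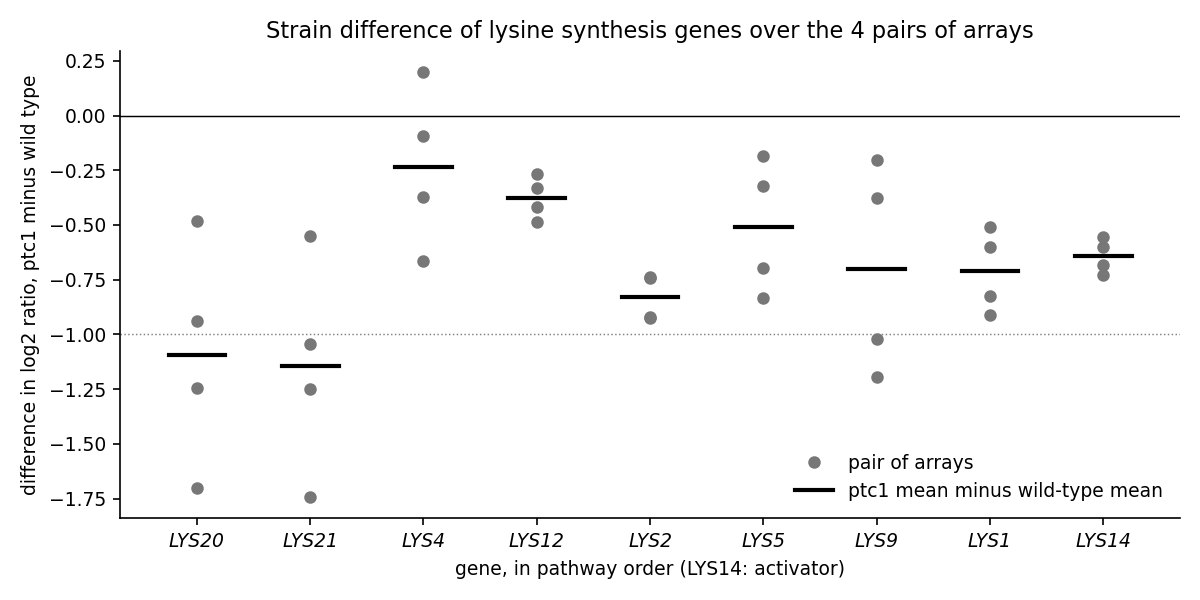
Difference in log2 ratio between ptc1 and wild type (vertical axis) for the 9 genes in pathway order. Grey points are the 4 pairs of arrays, black lines the difference of the means and the dotted line a 2-fold lower ratio. In 8 genes all pairs lie below 0, and LYS4 has a pair above 0.

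The other members had smaller differences, some of them more even over the arrays. LYS2 differed by −0.83 ± 0.13, LYS1 by −0.71 ± 0.23, LYS14 by −0.64 ± 0.10 and LYS12 by −0.38 ± 0.12. The differences of LYS9 (−0.70 ± 0.59) and LYS5 (−0.51 ± 0.38) rested on uneven ptc1 arrays, and that of LYS4 (−0.23 ± 0.45) was within the spread, turning to 0.05 without ptc1 array 2. In all, 35 of 36 array pairs had the lower value in ptc1. These pairs share the same 4 arrays and are not independent, so the count is a description only. For 8 of 9 members all 4 pairs were lower, a pattern found in 16.5% of all genes and in 25.8% of the 2491 genes with a wild-type mean above 0. Genes above 0 in the wild type mostly had the lower mean in ptc1, 68.9% of them doing so, and all 8 such members did. With arrays scaled to equal spread all 9 means remained lower in ptc1, and the median difference moved from −0.70 to −0.54, beside −0.0035 over all genes before scaling. Because mock-treated cells of its own strain are the reference for each value, a difference can lie in either culture.

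**Figure D3:**
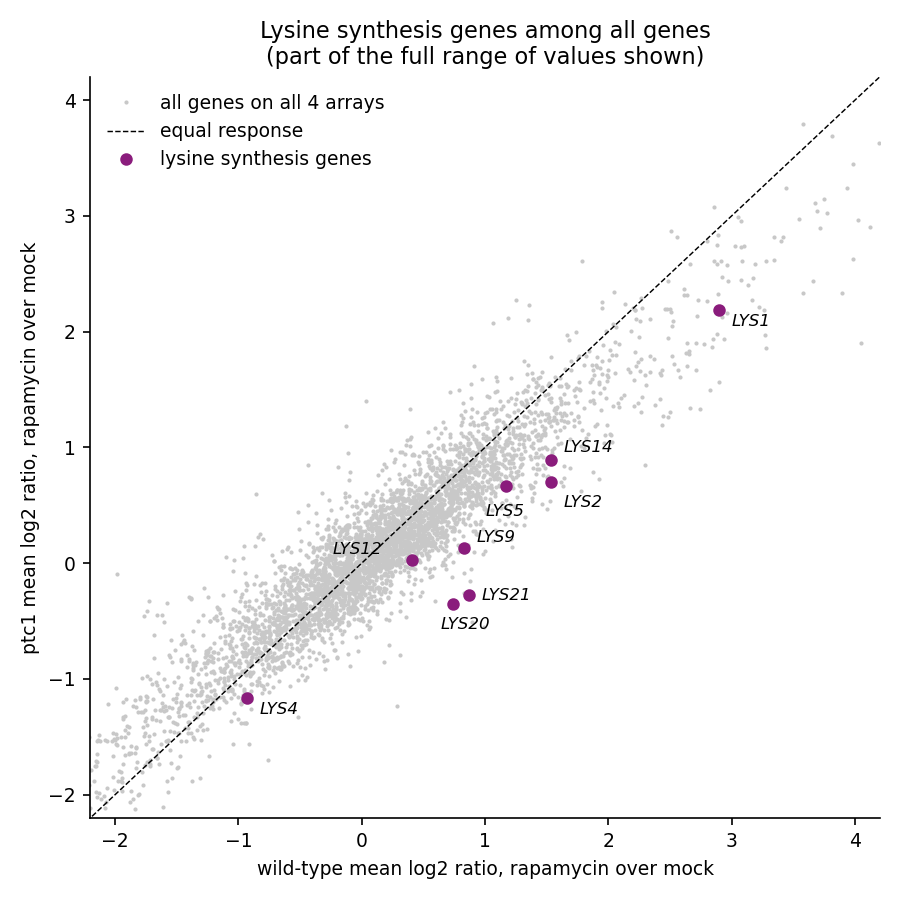
Mean log2 ratio of rapamycin over mock in ptc1 (vertical axis) against that in the wild type (horizontal axis), for genes measured on all 4 arrays (grey) and the 9 lysine synthesis genes (purple, named). The dashed line marks equal responses, and all 9 genes lie below it, LYS20 and LYS21 farthest.

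The array spread of ptc1 divided the set. LYS2, LYS14, LYS12 and LYS1 differed between ptc1 arrays by 0.003 to 0.09, well inside the median gap of 0.39 over all genes. LYS9, LYS20, LYS21 and LYS4 were lower on ptc1 array 2 by 0.82, 0.76, 0.70 and 0.57, and LYS5 was higher there by 0.51. In the wild type the gaps ran from 0.127 to 0.493, the largest being those of LYS20 and LYS21, which there were higher on array 2. Only 4 members (LYS1, LYS2, LYS5 and LYS14) were above 0 on all 4 arrays, a pattern of 36.4% of all genes. The part that dye or array quality plays in these gaps was not tested.

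Likeness between genes was measured as the root mean square difference of log2 ratios over the 4 arrays, among the 4650 genes measured on all of them. LYS20 and LYS21 were each other's nearest gene (0.107). Next to both stood ARG8, the acetylornithine aminotransferase gene of arginine synthesis, at 0.179 from LYS20 and 0.168 from LYS21. ARG8 had values of 0.60 and 0.865 in wild-type cells against 0.23 and −0.47 in ptc1 cells, the same mixed signs in ptc1 as the homocitrate synthase genes. The third was the unnamed feature YGR069W (0.242) for LYS20 and PRY2 (0.224) for LYS21. For LYS1 the nearest were HOR7 (0.116), ICY1 (0.139) and AGP1 (0.164), the last an amino acid permease gene, and no member was near it, LYS14 in place 347 being the closest. LYS2 and LYS14 were in place 4 of each other's lists, at 0.136.

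Genes linked to lysine outside the set were read from a list of 12 with enzymes, carriers, regulators, transporters and tRNA synthetases. In the wild type 4 of 12 rose and 1 fell (median 0.49), where 13.8% of all genes rose and 15.0% fell. In ptc1 2 of 11 rose and 0 fell (median 0.52), where 10.6% of all genes rose and 12.4% fell. Over the 11 genes measured on all 4 arrays the medians were 0.82 in the wild type and 0.52 in ptc1. The mitochondrial aconitase gene ACO1 rose in both strains, by 1.31 ± 0.23 and 1.19 ± 0.27. GCN4, whose activity is set mainly at translation, had 0.845 and 0.79 on wild-type arrays, then 0.51 and 0.53 on ptc1 arrays. These were positive on each array, below 2-fold and without overlap of the strains, the difference being −0.30 ± 0.04. MKS1, also known as LYS80 and a negative regulator of the retrograde and lysine genes, had means of 0.14 ± 0.08 and 0.36 ± 0.35. The oxodicarboxylate carrier gene ODC1 had 0.92 ± 0.07 and 0.77 ± 0.20, and ODC2 had −0.037 and 0.29 in the wild type, −1.28 on ptc1 array 2 and no value on ptc1 array 1.

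Transport genes differed among themselves. VBA1, for a vacuolar transporter of basic amino acids, had wild-type values of 2.69 and 3.185 and ptc1 values of 2.001 and 1.86. It rose in both strains and was the 1 of 11 measured members of this list called lower in ptc1, where 0.925% of all genes were. Its difference of −1.01 ± 0.36 only just passed the limit, with pairs from −1.32 to −0.69. VBA2, of the same family, rose in the wild type (1.41 ± 0.27) and not in ptc1 (0.70 ± 0.40), while VBA3 fell in the wild type (−1.18 ± 0.22) and not in ptc1 (−0.46 ± 0.29). The strain differences of VBA2 (−0.71 ± 0.48) and VBA3 (0.725 ± 0.36) did not reach 2-fold. LYP1, the lysine permease of the plasma membrane, had values of 0.13 and 0.21 in wild-type cells against 0.735 and −0.39 in ptc1 cells, with a mean of 0.17 in both strains and no settled sign in ptc1. The lysyl-tRNA synthetase genes KRS1 (cytosol) and MSK1 (mitochondria) had wild-type means of −0.35 ± 0.18 and −0.41 ± 0.22 and ptc1 means of −0.78 ± 0.26 and −0.08 ± 0.15, all inside 2-fold. KRS1 was lower in ptc1 by a difference of −0.43 ± 0.31 and MSK1 higher by 0.33 ± 0.26, each with the same sign in all 4 pairs. All 4 pairs were lower in 16.5% of all genes, and the share with all 4 higher was not calculated.

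**Figure D4:**
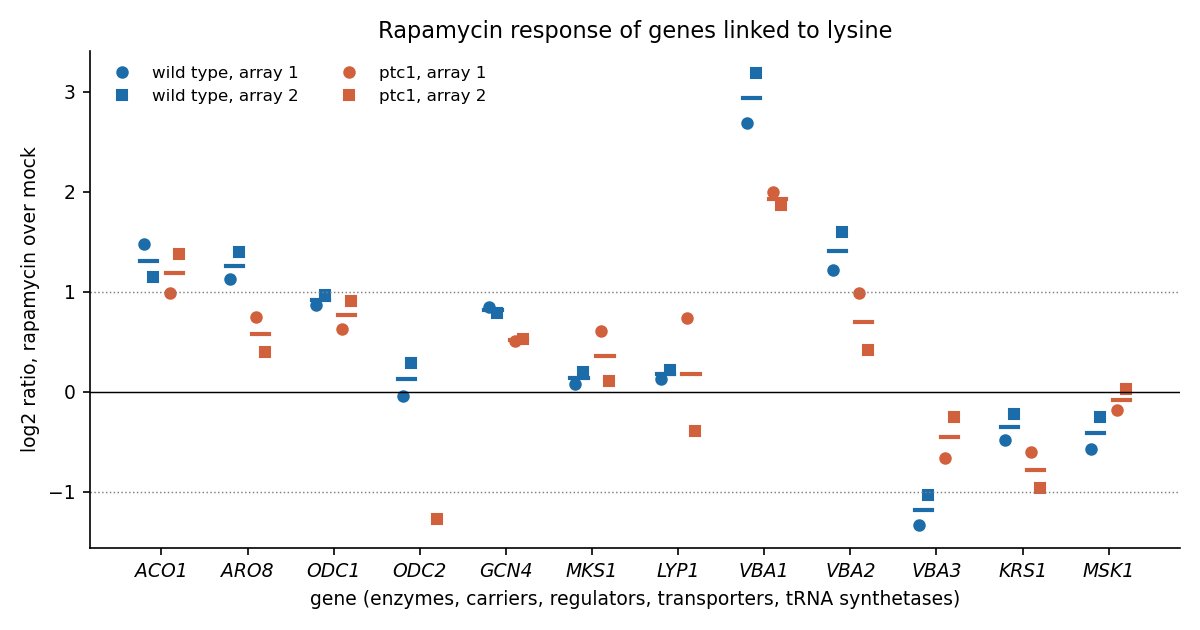
Log2 ratio of rapamycin over mock (vertical axis) for 12 genes linked to lysine outside the set, on wild-type arrays (blue) and ptc1 arrays (orange). Circles are array 1, squares array 2, short lines the strain means and dotted lines the 2-fold limits. VBA1 lies highest in both strains, and VBA3 is below 0 on every array.

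Set beside other amino acid pathways, the lysine genes were intermediate in both readings. Arginine synthesis genes rose in 7 of 8 measured members in the wild type (median 2.94), histidine genes in 4 of 6 (median 1.42), aromatic genes in 7 of 12 (median 1.04) and branched-chain genes in 3 of 10 (median 0.23), against 4 of 9 and 0.87 for lysine and 13.8% of all genes. The median strain difference was −0.70 for lysine, −0.97 for arginine, −0.48 for histidine, −0.49 for aromatic and −0.45 for branched-chain genes, beside −0.0035 over all genes. These lists started from unlike wild-type medians. Over genes measured on all 4 arrays, medians went from 0.87 to 0.13 for lysine and from 2.94 to 1.93 for arginine. They went from 1.42 to 0.86 for histidine, from 1.04 to 0.55 for aromatic and from 0.23 to −0.33 for branched-chain genes. Calls of a lower ratio in ptc1 came to 4 of 8 for arginine and to 0 in the histidine, aromatic and branched-chain lists, where at the 0.925% over all genes a count of 0 is usual for lists of this size. The highest and lowest wild-type means were those of ARG4 (4.59) and ARG8 (0.73), HIS5 (2.64) and HIS6 (−0.82), TRP3 (2.07) and ARO7 (−2.15), and BAT2 (3.77) and LEU1 (−2.13). Differences between these lists were not tested.

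**Figure D5:**
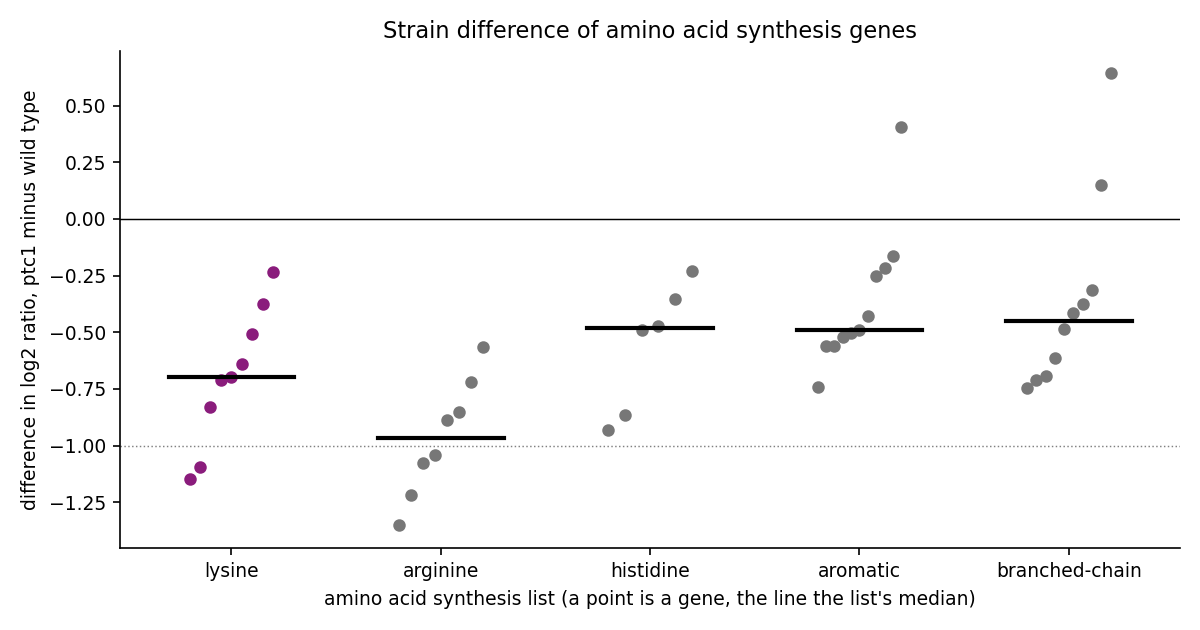
Difference in log2 ratio between ptc1 and wild type (vertical axis) for the genes of 5 amino acid synthesis lists measured on all 4 arrays. Points are genes, black lines list medians and the dotted line a 2-fold lower ratio. The lysine (9 of 9), arginine (8 of 8) and histidine (6 of 6) genes all lie below 0. So do 10 of 11 aromatic and 8 of 10 branched-chain genes, where the median over all genes is −0.0035. Among all genes with a wild-type mean above 0, a share of 68.9% lies below 0 in this difference. The arginine median is the lowest at −0.97.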

How the data were processed

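The authors deposited a table of log ratios by open reading frame, treated as log2 values. Per the labels' protocols, cDNA from 8 µg of total RNA was labelled indirectly with Cy3 or Cy5, spots with a diameter under 120 µm or intensities under 150 units were left out, and intensities were normalised by the ratio of medians. The sources used here do not state the scanner software, the background correction or the log base. All 4 columns correlated positively across genes, so no sign was turned. Of 6212 rows, 5662 were matched to the R64 annotation table of S288C by locus tag and 52 by synonym, and rows of the same gene were averaged, leaving 6176 genes. Calls were made in Python 3.11.15 with pandas 2.3.3. The rules were tried on simulated data with equal noise on all arrays and strain differences larger than those of LYS20 and LYS21. That trial checks the code and does not bear on calls near the limit. Intensities and promoter sequences were not used here. The precision is limited by the number of arrays. The members and lists were chosen with earlier results of these data known. A further lysine-linked gene is not reported here. Genes named are all members, the lysine-linked genes, members of the 2-oxoglutarate list, the highest and lowest of each amino acid list, and the 3 genes nearest to LYS1, LYS20 and LYS21. Alternatives were median centring, equal spread, other fold limits, a natural logarithm, no condition on signs and leaving out each array.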

Additional observations from a re-analysis of the deposited data

How the results depend on the processing

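Median centring, scaling to equal spread and dropping the condition on signs left every count of called members as reported. At 1.5-fold, 7 members rose and 1 fell in the wild type, 4 rose in ptc1 and 6 were lower in ptc1. At 3-fold these were 1 and 0 in the wild type, 1 rose in ptc1, 0 fell there and 0 were lower. Values read as natural logarithms gave 7 risen and 1 fallen in the wild type, 3 risen in ptc1 and 5 lower. The shares of all genes were calculated at 2-fold only, so the counts at these other limits have no matching share beside them. With each array left out in turn, 0 to 1 member fell in the wild type, 0 to 1 fell in ptc1 and 0 to 3 were lower in ptc1. The wild-type median then ran from 0.912 to 1.113 and the ptc1 median from 0.063 to 0.406. No member was called lower without wild-type array 2 or without ptc1 array 2, and LYS9 joined LYS20 and LYS21 without ptc1 array 1. LYS4 passed the limit in the wild type without wild-type array 2, and LYS21 without wild-type array 1. With an array left out its strain has 1 array and no condition on signs, and the cause of these changes was not tested. The count of members with a lower ptc1 mean was 9 in every setting that changes the values except without ptc1 array 2, where it was 8.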

Other observations

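Genes that supply 2-oxoglutarate, the entry point of lysine synthesis, rose in part in both strains. Of 8 such genes 4 rose in the wild type, where 13.8% of all genes rose, and 4 of 7 measured rose in ptc1, where 10.6% did. For the 7 genes with a value on every array the wild-type median was 1.31 and the ptc1 median 1.19. The median strain difference was −0.06, beside −0.70 for the lysine genes. The peroxisomal citrate synthase gene CIT2 had 4.05 and 4.18 on wild-type arrays, then 2.87 and 2.94 on ptc1 arrays, a difference of −1.21 ± 0.10. The mitochondrial isocitrate dehydrogenase gene IDP1 had wild-type values of 2.08 and 2.68 and ptc1 values of 1.56 and 1.17, a difference of −1.01 ± 0.51. These 2 of 7 were called lower, beside 0.925% of all genes. CIT1, for the mitochondrial citrate synthase, rose in both strains (1.76 ± 0.12 and 1.78 ± 0.17). IDP2, the cytosolic isocitrate dehydrogenase gene, had the higher mean in ptc1, at 0.98 ± 0.11 against 0.24 ± 0.12 in the wild type. Its difference of 0.74 ± 0.16 did not reach 2-fold, and it rose in neither strain by the rule. The difference between this list and the lysine genes was not tested.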
